A study of Mus musculus with 9 samples.

Results

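T-box transcription factors were followed in spermatogonia of the mouse through 7 family genes: T (brachyury), Eomes, Tbx1, Tbx2, Tbx3, Tbx6 and Mga. They were picked by symbol for the levels they showed in these same libraries, as a family whose members went in opposite directions, so their levels and differences are given below as a description and carry no test. All 7 symbols were found once each among 23045 genes with a single entry, and 10 further T-box genes in the table were not among the 7. RNA was sequenced from germ cells of male pups of the LT-11B6 line (Id4-EGFP transgene on a C57BL/6 background) at postnatal day 6. There were 3 libraries of ID4-EGFP+ cells stained strongly for the surface tetraspanin TSPAN8 (TSPAN8-high), 3 of cells stained weakly (TSPAN8-low) and 3 of ID4-EGFP+ cells sorted on the reporter alone (all ID4-EGFP+). All 9 libraries thus carry the reporter transgene, and cells of intermediate TSPAN8 staining are in neither fraction. The labels call the replicates separate preparations without saying whether pups were pooled or shared, so a p-value reflects only how far these preparations differ, which may be technical.

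T-box proteins bind DNA through a shared domain, the T-box, and activate or repress genes during the laying down of the germ layers, the heart, the limbs and the glands. T and Eomes act in the primitive streak, where Nodal, WNT and FGF signals induce them, and Tbx6 acts downstream of them in the mesoderm beside the neural tube. In spermatogonia, T has been described as a gene downstream of the GDNF-induced factor Etv5, and Eomes as a mark of a subset of undifferentiated cells. Tbx1 is best known from the pharynx and the outflow tract of the heart, Tbx2 and Tbx3 are mainly repressors, and Mga carries a T-box as well as a second DNA-binding domain through which it pairs with MAX.

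T and Eomes stood highest in TSPAN8-high, Tbx1 stood lowest there, and Mga, the most abundant of the 7, stood at about the same level in the 3 populations. The promoters of the 3 genes that differed are shown, with the letters that T-box proteins bind, as the sequence around a start that RefSeq annotates. They are windows of 250 bases before to 50 after the annotated start, in the direction of transcription, from RefSeq on GRCm38.p6, a later build than the mm9 used by the authors. Capitals mark AGGTGT, the core of the element that T-box proteins bind, searched on both strands.
T promoter, chr17:8434173-8434472, plus strand: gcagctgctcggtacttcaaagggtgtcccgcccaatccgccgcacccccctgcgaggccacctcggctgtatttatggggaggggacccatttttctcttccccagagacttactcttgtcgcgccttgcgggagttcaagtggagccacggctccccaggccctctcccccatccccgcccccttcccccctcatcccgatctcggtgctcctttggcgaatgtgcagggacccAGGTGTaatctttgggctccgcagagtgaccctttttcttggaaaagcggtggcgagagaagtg
Eomes promoter, chr9:118477939-118478238, plus strand: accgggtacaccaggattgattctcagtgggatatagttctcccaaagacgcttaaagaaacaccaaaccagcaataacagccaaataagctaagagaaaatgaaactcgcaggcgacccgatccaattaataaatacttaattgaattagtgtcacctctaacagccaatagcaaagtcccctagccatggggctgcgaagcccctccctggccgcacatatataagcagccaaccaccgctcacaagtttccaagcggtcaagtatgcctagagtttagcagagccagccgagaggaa
Tbx1 promoter, chr16:18590622-18590921, minus strand: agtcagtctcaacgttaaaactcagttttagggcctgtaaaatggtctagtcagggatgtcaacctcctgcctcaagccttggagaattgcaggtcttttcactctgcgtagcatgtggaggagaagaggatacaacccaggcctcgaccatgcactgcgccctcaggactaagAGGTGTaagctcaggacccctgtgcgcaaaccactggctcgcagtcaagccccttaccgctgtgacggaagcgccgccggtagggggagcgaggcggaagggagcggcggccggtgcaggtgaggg
The T window holds 1 such core, 14 bases before the start, and the Tbx1 window holds 1, 76 bases before the start, both in the direction of the gene. The Eomes window holds none. A window at a second annotated Tbx1 start holds none either, nor do the windows of Tbx6 and Mga. The first transcribed bases of the T window and of the Tbx1 window shown were found in a GENCODE M21 transcript of the gene. Those of the Eomes window and of the second Tbx1 window were not. The search asked for an exact match, so a GENCODE start slightly further downstream would also be missed. The 6 letters occur in 13.7% of all 32851 promoter windows, so a match in 2 of the 6 windows of these genes is a description of the letters and not of binding. The longer half-site AGGTGTGA is found in 1.28% of all windows and CACGTG, the letters that MYC and MAX family pairs bind, in 7.15%, and neither is in the 6 windows.

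The values are FPKM (fragments per kilobase of transcript, scaled to the depth of the library), which allow for transcript length and can be set side by side between genes. The low FPKM values moved in steps, from which the value of 1 fragment was read, and this put the libraries at an estimated 19000000 to 23300000 fragments each. Each library had 10734 to 11155 entries at 1 FPKM or more, and libraries correlated with Pearson's r of 0.981 to 0.991 across tested genes within a group and 0.966 to 0.991 between groups. The sort was visible in the transcripts: Tspan8 had 43.7, 29.6 and 28.8 FPKM in TSPAN8-high cells, 6.65, 10.8 and 11.8 in TSPAN8-low and 14.5, 14.2 and 16.8 in all ID4-EGFP+. The summed level of 8 germ cell markers was 3434 to 4058 FPKM in TSPAN8-high, 3153 to 3823 in TSPAN8-low and 3076 to 3646 in all ID4-EGFP+, and all 8 were measured above the minimum for testing.

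The summed level of 12 Sertoli cell markers was 95.5, 105 and 238 FPKM in TSPAN8-high replicates 1 to 3, 12.9, 23.2 and 146 in TSPAN8-low and 21.0, 48.9 and 111 in all ID4-EGFP+. In each replicate number the TSPAN8-high sum exceeded the TSPAN8-low one. The markers Sox9, Amh, Wt1 and Gata4 were under 1 FPKM in all 9 libraries and 0 of the 12 was at 0 throughout. By limma 0 of the 6 tested Sertoli markers passed between the fractions, where 5.56% of all tested genes did. With replicate number as a block 6 were higher in TSPAN8-high, where 11.8% of all tested genes were. Markers of Leydig, endothelial and red blood cells summed to at most 6.48 FPKM in any library, that value being the Leydig markers in TSPAN8-low replicate 3. The red blood cell sum leaves out the haemoglobin gene Hba-a1, which had no single entry. The 6 leukocyte markers summed to 13.8, 17.9 and 23.6 FPKM in TSPAN8-high replicates 1 to 3, 6.97, 10.8 and 15.0 in TSPAN8-low and 9.18, 13.0 and 13.9 in all ID4-EGFP+. The 5 peritubular myoid markers summed to 3.66, 3.57 and 7.63 FPKM in TSPAN8-high replicates, 1.55, 2.44 and 3.73 in TSPAN8-low and 2.35, 4.95 and 2.56 in all ID4-EGFP+. For both lists the TSPAN8-high sum exceeded the TSPAN8-low sum in each replicate number, as for the Sertoli list. The 6 interstitial markers summed to 3.83, 13.7 and 8.33 FPKM in TSPAN8-high replicates, 1.94, 1.78 and 8.87 in TSPAN8-low and 2.08, 2.38 and 5.56 in all ID4-EGFP+, where replicate 3 went the other way between the fractions. By limma 0 of the 2 tested genes of each of these 3 lists and 0 of the 8 germ cell markers passed between the fractions. With replicate number as a block, 1 leukocyte, 1 interstitial, 0 peritubular myoid and 2 germ cell markers were higher in TSPAN8-high. The share of all tested genes that were higher with the block was 11.8%, as above. The part of these cells in the results below was not tested. In such bulk samples fewer cells with a transcript and less of it per cell cannot be told apart.

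**Figure D1:**
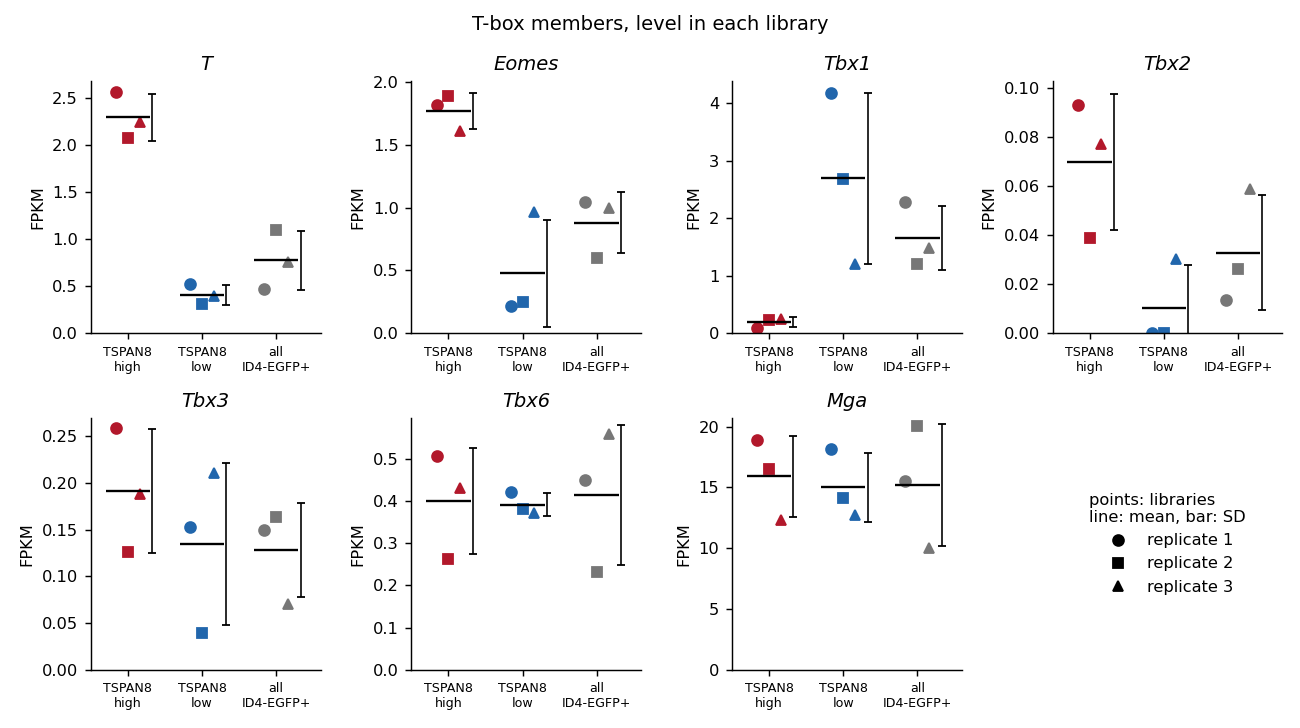
Level of each of the 7 T-box genes in FPKM (vertical axes, from 0) in the 3 libraries of TSPAN8-high, TSPAN8-low and all ID4-EGFP+ cells; symbols mark the replicate number, lines the mean and bars the SD, cut at 0 for Tbx2. T and Eomes lie highest in TSPAN8-high, Tbx1 lowest there, and the values of Tbx3, Tbx6 and Mga overlap between the populations.

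T encodes brachyury, the founding member of the family. It had 2.56, 2.07 and 2.24 FPKM in TSPAN8-high cells, 0.518, 0.313 and 0.388 in TSPAN8-low and 0.467, 1.10 and 0.754 in all ID4-EGFP+. The TSPAN8-high values lay above all others, while the values of TSPAN8-low and all ID4-EGFP+ overlapped. The means were 2.29 ± 0.250 FPKM in TSPAN8-high, 0.406 ± 0.104 in TSPAN8-low and 0.772 ± 0.315 in all ID4-EGFP+ (SD, n = 3 each), and the TSPAN8-high mean was 5.64 times the TSPAN8-low mean. Within replicate numbers 1 to 3 the TSPAN8-high value was 4.95, 6.62 and 5.77 times the TSPAN8-low value. As a difference of log2(FPKM + 1), a scale that compresses low values, this was 1.23, 1.23 and 1.22, nearly the same in each replicate number. All 9 T values corresponded to whole fragments within a tolerance of 0.1: 105, 87 and 95 fragments in TSPAN8-high, 18, 12 and 14 in TSPAN8-low and 19, 46 and 28 in all ID4-EGFP+. The sums of 287 and 44 fragments in TSPAN8-high and TSPAN8-low have 95% exact Poisson intervals of 255 to 322 and 32.0 to 59.1. These intervals cover counting error only, since amplified reads are not independent molecules.

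Eomes encodes eomesodermin. It had 1.82, 1.89 and 1.61 FPKM in TSPAN8-high cells, 0.214, 0.245 and 0.970 in TSPAN8-low and 1.05, 0.601 and 0.995 in all ID4-EGFP+. As for T, the TSPAN8-high values lay above all others and the other populations overlapped, but TSPAN8-low was not uniform: replicate 3 stood at the level of all ID4-EGFP+ and the other two well under it. The means were 1.77 ± 0.145 FPKM in TSPAN8-high, 0.476 ± 0.428 in TSPAN8-low and 0.881 ± 0.244 in all ID4-EGFP+ (SD, n = 3 each). The TSPAN8-high value was 8.49, 7.71 and 1.66 times that of TSPAN8-low in replicates 1 to 3. TSPAN8-low replicate 3 was also the TSPAN8-low library with the highest summed Sertoli markers, 146 FPKM. It had the highest Tspan8 and Id4 of TSPAN8-low as well, 11.8 and 33.9 FPKM. TSPAN8-high replicate 3 had the highest Sertoli sum of all libraries, 238 FPKM, and the lowest Eomes value of TSPAN8-high. The part of either in the Eomes values was not tested. Eomes values rested on about 14 to 145 fragments per library, an estimate from the longest annotated transcript. In GENCODE M21 an antisense gene, Gm33460, overlaps Eomes, and the libraries do not mark strand, so reads of the pair cannot be told apart.

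Tbx1 went the other way. It had 0.0860, 0.223 and 0.248 FPKM in TSPAN8-high cells, 4.18, 2.69 and 1.20 in TSPAN8-low and 2.28, 1.20 and 1.49 in all ID4-EGFP+. The TSPAN8-high values lay below all others, and TSPAN8-low and all ID4-EGFP+ overlapped. The means were 0.186 ± 0.0875 FPKM in TSPAN8-high, 2.69 ± 1.49 in TSPAN8-low and 1.65 ± 0.558 in all ID4-EGFP+ (SD, n = 3 each). The TSPAN8-low mean was 14.5 times the TSPAN8-high mean and the all ID4-EGFP+ mean 8.90 times. Within a replicate number the TSPAN8-low value was between 4.84 times (replicate 3) and 48.7 times (replicate 1) that of TSPAN8-high, so the direction was shared and the size was not. In fragments, with a step 1.47 times that expected from the longest annotated transcript, Tbx1 rested on 3, 8 and 9 in TSPAN8-high, 124, 88 and 37 in TSPAN8-low and 79, 43 and 47 in all ID4-EGFP+. The sums of 20 and 249 fragments in TSPAN8-high and TSPAN8-low have 95% exact Poisson intervals of 12.2 to 30.9 and 219 to 282. As for T, these intervals cover counting error only and not the spread between libraries. The size of these counts depends on that step more than for the other 4 genes with whole fragments, whose steps were close to the expected one. The large ratio in replicate 1 therefore has 3 fragments on its TSPAN8-high side.

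These differences stand against a wide background. Of 11142 tested genes, 5.56% passed between the fractions by limma (adjusted p under 0.05), 3.41% higher and 2.15% lower in TSPAN8-high. These are 380 and 239 genes, but 223 and 307 with the authors' normalized values and 255 and 360 with libraries set to a common median, so the balance of directions rests on the scaling. Further, 15.9% had 3 TSPAN8-high values above the 3 TSPAN8-low values without overlap, as T and Eomes did. The reverse pattern, that of Tbx1, was seen in 9.71%. TSPAN8-high lay above all ID4-EGFP+ without overlap in 6.79% of tested genes and below it in 8.34%. None of the 7 genes had its 3 populations fully apart in 1 order, a pattern found in 1.33% of tested genes with TSPAN8-high on top and in 0.547% with TSPAN8-low on top. Since the 3 genes were chosen on these values, nothing is read from the comparison. T and Eomes reached the testing minimum of 1 FPKM in 3 libraries through the 3 TSPAN8-high libraries and 1 of all ID4-EGFP+, Tbx1 through TSPAN8-low and all ID4-EGFP+, and Mga in all 9; Tbx2, Tbx3 and Tbx6 stayed under the minimum.

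**Figure D2:**
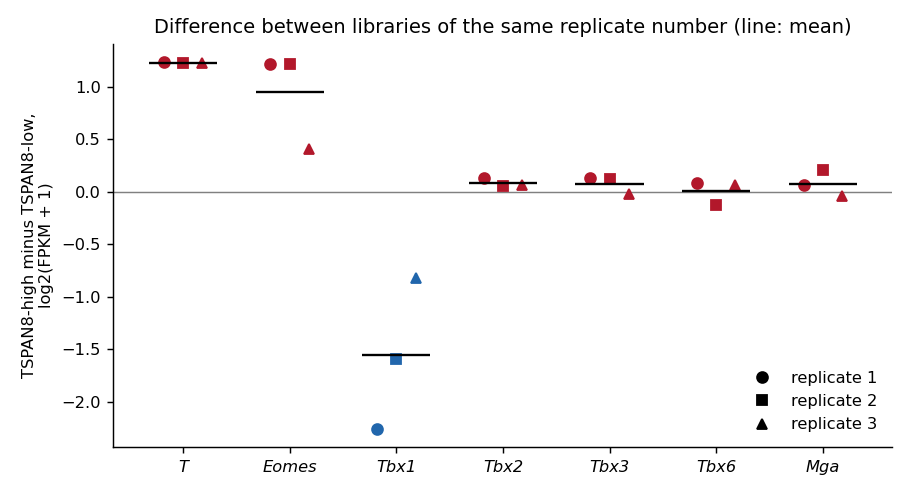
Difference TSPAN8-high minus TSPAN8-low in log2(FPKM + 1) (vertical axis) for each of the 7 genes, one symbol per replicate number and a line at the mean. The 3 T values lie between 1.22 and 1.23, those of Eomes between 0.41 and 1.22, those of Tbx1 between -2.26 and -0.82, and those of the other 4 genes close to 0.

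Mga, which encodes the MAX partner and is the largest protein of the family, was the only one of the 7 above 5 FPKM. It had 18.9, 16.5 and 12.3 FPKM in TSPAN8-high cells, 18.1, 14.2 and 12.7 in TSPAN8-low and 15.5, 20.1 and 10.0 in all ID4-EGFP+. The populations overlapped throughout, with means of 15.9 ± 3.34 FPKM in TSPAN8-high, 15.0 ± 2.82 in TSPAN8-low and 15.2 ± 5.03 in all ID4-EGFP+ (SD, n = 3 each). Replicate 3 had the lowest value in each of the 3 populations. In the mean of all ID4-EGFP+ cells Mga exceeded 79.6% of the 23045 genes, Tbx1 57.3%, Eomes 51.8% and T 50.8%. GENCODE M21 lists 15 Mga transcripts of 649 to 13931 bases, and the gene-level FPKM does not separate them.

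Tbx6, a regulator of the mesoderm beside the neural tube, had 0.507, 0.262 and 0.431 FPKM in TSPAN8-high cells, 0.422, 0.382 and 0.372 in TSPAN8-low and 0.450, 0.233 and 0.559 in all ID4-EGFP+. Its means of 0.400 FPKM in TSPAN8-high, 0.392 in TSPAN8-low and 0.414 in all ID4-EGFP+ differed by far less than the spread between libraries, on 8 to 17 fragments per library. Tbx3, a repressor that also acts in embryonic stem cells, had 0.259, 0.126 and 0.188 FPKM in TSPAN8-high cells, 0.153, 0.0396 and 0.211 in TSPAN8-low and 0.150, 0.163 and 0.0707 in all ID4-EGFP+. Its populations overlapped, on 4 to 28 fragments per library, and an annotated antisense gene, Tbx3os1, overlaps it.

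Tbx2, the closest relative of Tbx3 among the 7, was barely detected. It had 0.0931, 0.0390 and 0.0772 FPKM in TSPAN8-high, 0.0303 in TSPAN8-low replicate 3 and 0.0135, 0.0260 and 0.0588 in all ID4-EGFP+, and was listed at 0 in TSPAN8-low replicates 1 and 2. These values stood for 7, 3 and 6 fragments in TSPAN8-high, 0, 0 and 2 in TSPAN8-low and 1, 2 and 4 in all ID4-EGFP+. The TSPAN8-high values lay above those of TSPAN8-low, but by 1 fragment at the nearest point. Among 8150 genes that were above 0 somewhere yet under the testing minimum, 8.39% had this pattern. A count of 0 fragments allows up to 0.0471 FPKM (3 fragments) in the libraries here, above the TSPAN8-high replicate 2 value, so a difference in Tbx2 was not detectable at this depth in that replicate. The sums of 16 fragments in TSPAN8-high and 2 in TSPAN8-low have 95% exact Poisson intervals of 9.15 to 26.0 and 0.242 to 7.22. These too cover counting error only and not the spread between libraries.

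The 10 T-box genes not among the 7 were all under the minimum. The highest value was 0.347 FPKM, for Tbx21 in all ID4-EGFP+ replicate 1. Tbx10 was listed at 0 in all 9 libraries, Tbx5 and Tbx22 in 8, and Tbr1, the closest relative of Eomes, in 6. Tbx15 and Tbx20 were above 0 in all 9 libraries, Tbx20 with 0.0714, 0.0768 and 0.0712 FPKM in TSPAN8-high cells, 0.276, 0.0766 and 0.0830 in TSPAN8-low and 0.246, 0.128 and 0.0785 in all ID4-EGFP+. Tbx19 had 0.109, 0.0356 and 0.0704 FPKM in TSPAN8-high and was listed at 0 in the 3 TSPAN8-low libraries and in 1 of all ID4-EGFP+. Tbx4 and Tbx18 ranged up to 0.213 and 0.176 FPKM. Of the 17 T-box genes in the table, 4 therefore reached 1 FPKM in at least 3 libraries, and all 4 are among the 7.

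**Figure D3:**
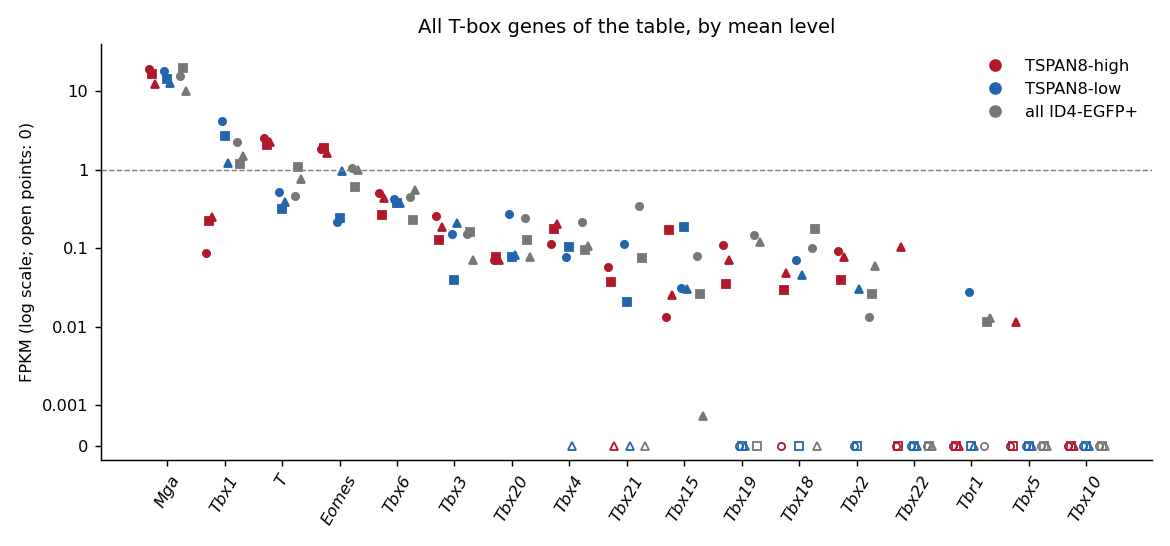
FPKM on a log scale (vertical axis) of all 17 T-box genes, ordered by their mean level; colours mark the population, symbol shapes the replicate number, and open points at the bottom values of 0. The dashed line is 1 FPKM. Mga stands at 10.0 to 20.1 FPKM, Tbx1, T and Eomes lie on both sides of 1 FPKM, and the other 13 genes lie below it in every library.

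Genes known to work with these factors were taken from 7 lists of 121 genes, of which 61 were tested and 60 were under the minimum. The lists were drawn up with earlier results of these data known, among them those of Foxc2, Lhx1, Tcl1 and Cdh1, so these genes are not independent evidence of a direction. Between the fractions 5 of the 61 rose and 2 fell by limma, which is 11.5% against 5.56% of all tested genes. With the replicate block 8 rose and 5 fell, where 11.8% of all tested genes rose and 7.34% fell. Foxc2, Lhx1, Tcl1 and Cdh1 are among the genes that rose in both fits, so neither count is read as a result about the lists. The median log2 difference of the 61 was 0.01, beside 0.05 for all tested genes. TSPAN8-high against all ID4-EGFP+ gave 0 calls among the 61 by limma, where 0.144% of all tested genes passed. At an unadjusted p under 0.05 there were 10 of the 61, beside 1085 of all 11142 tested genes. With the block 1 was higher and 2 lower (1.23% and 1.86% of all). TSPAN8-low against all ID4-EGFP+ gave 0 by limma, where 0% of all tested genes passed. At an unadjusted p under 0.05 there were 3 of the 61, beside 910 of all 11142 tested genes. With the block the list genes again gave 0, where 0.0449% of all tested genes passed.

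MGA and MAX sit in a variant Polycomb repressive complex that silences germ cell and meiotic genes in embryonic stem cells. Of 17 genes of this complex, 16 were tested between the fractions (median log2 difference -0.12). Of the 16, 1 rose and 0 fell, where 3.41% of all tested genes rose and 2.15% fell. The one that rose was Pcgf6, for the Polycomb ring finger protein that defines this complex. It had 65.9, 68.7 and 64.0 FPKM in TSPAN8-high cells, 44.6, 50.4 and 42.1 in TSPAN8-low and 46.4, 54.2 and 49.1 in all ID4-EGFP+. All 3 TSPAN8-high values lay above the other 6, and the log2 fold change against TSPAN8-low was 0.53 (SE 0.13, adjusted p = 0.0425 by limma, 0.00538 with the replicate block). The Pcgf6 call was lost without any 1 of 8 libraries (adjusted p up to 0.168), the exception being all ID4-EGFP+ replicate 2, with a common median of the libraries (0.0942) and with the authors' normalized values (0.0601). Yaf2, for a RING-binding subunit, had 43.0 ± 3.06 FPKM in TSPAN8-high, against 62.3 ± 6.83 in TSPAN8-low (SD, n = 3 each) and a log2 fold change of -0.52 (adjusted p = 0.0763 by limma, 0.0118 with the block). Its paralogue Rybp had -0.41 (adjusted p = 0.238) and the heterochromatin protein gene Cbx1 -0.28 (adjusted p = 0.253). When replicate number was a block, 1 gene of the complex was higher and 1 lower, where 11.8% and 7.34% of all tested genes were. With a common median of the libraries the complex had 0 genes higher and 1 lower. That was a different gene, as the Pcgf6 estimate stayed above 0 (0.43). Which gene of the complex passed thus rests on the scaling. The summed Sertoli, leukocyte and peritubular myoid markers stood higher in TSPAN8-high within each replicate number, as given above.

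In the MYC and MAX network, some members of which compete with MGA for MAX, 7 of 11 genes were tested (median -0.12). Of the 7, 0 rose and 1 fell, where 3.41% of all tested genes rose and 2.15% fell. Mxd4, for a repressor of the MAD group, had 28.4, 22.6 and 26.4 FPKM in TSPAN8-high cells, 42.2, 35.7 and 40.8 in TSPAN8-low and 40.4, 30.2 and 33.5 in all ID4-EGFP+. The TSPAN8-high values lay below the other 6, and the log2 fold change between the fractions was -0.60 (SE 0.16, adjusted p = 0.0449 by limma, 0.00310 with the block). The Mxd4 call was lost without any 1 of 7 libraries (adjusted p up to 0.193), the exceptions being replicates 1 and 2 of all ID4-EGFP+, and with no filter (0.0734). Mycl1 had -0.30 (adjusted p = 0.420), Mlxip -0.25 (0.490) and Mxi1 -0.12 (0.654). The direction of the 2 calls around MGA thus differed by gene, while Mga itself overlapped between the populations.

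The signalling pathways that induce T and Eomes in the primitive streak, repressors and inhibitors included, were followed through 25 genes. By limma 0 of the 14 tested genes passed, where 5.56% of all tested genes did (median 0.09). At an unadjusted p under 0.05 there were 2 of the 14, beside 2448 of all 11142 tested genes. Acvr2b, for an activin receptor, had 4.89 ± 0.687 FPKM in TSPAN8-high, against 7.05 ± 0.0690 in TSPAN8-low (SD, n = 3 each), with a log2 fold change of -0.46 (adjusted p = 0.0835). With the block Acvr2b fell (0.0257), the 1 call of the list, where 11.8% of all tested genes rose and 7.34% fell. Acvr2b fell against all ID4-EGFP+ as well (-0.70, adjusted p = 0.0105 with the block, 0.0736 without). Tcf7l1, for a repressor of WNT targets, had 0.36 (adjusted p = 0.152), Ctnnb1, for beta-catenin, 0.21 (0.447) and Smad5 -0.19 (0.466).

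Of 21 genes downstream of T, Eomes or Tbx6 in the embryo, 5 were tested (median 0.18). Of the 5, 1 rose and 0 fell, where 3.41% of all tested genes rose and 2.15% fell. Lhx1, a LIM homeobox gene of the streak that is also induced by GDNF in spermatogonia, had 3.73, 3.88 and 4.59 FPKM in TSPAN8-high cells, 0.623, 2.07 and 2.50 in TSPAN8-low and 2.24, 2.58 and 3.42 in all ID4-EGFP+. The TSPAN8-high values lay above the rest, and the log2 fold change between the fractions was 0.96 (SE 0.25, adjusted p = 0.0440 by limma, 0.00385 with the block). The Lhx1 call was lost without any 1 of 7 libraries (adjusted p up to 0.138), TSPAN8-low replicate 3 and all ID4-EGFP+ replicate 1 being the exceptions, and with a pseudocount of 0.1 (0.0630), a common median (0.0623), the authors' normalized values (0.0866) or no filter (0.131). Gsc had 0.45 (adjusted p = 0.429), Mesp2 0.18 (0.612) and Snai1 0.06 (0.907). The other 16, among them Mixl1, were under the minimum; Mixl1, singled out after its values were seen, had 0.473, 0.525 and 0.499 FPKM in TSPAN8-high cells, 0.660, 0.552 and 0.807 in TSPAN8-low and 1.02, 1.09 and 0.452 in all ID4-EGFP+.

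Around Tbx1, 7 of 18 genes were tested (median 0.03, beside 0.05 for all tested genes). Of the 7, 1 rose and 0 fell, where 3.41% of all tested genes rose and 2.15% fell. The one that rose was Foxc2, a forkhead gene that acts upstream of Tbx1 in the pharynx. It had 7.50, 5.97 and 6.75 FPKM in TSPAN8-high cells, 1.87, 2.22 and 2.16 in TSPAN8-low and 4.54, 3.81 and 5.16 in all ID4-EGFP+, with the 3 populations fully apart. The log2 fold change between the fractions was 1.32 (SE 0.15, adjusted p = 0.00143 by limma), and this call alone of the 7 was kept without each of the 9 libraries in turn (adjusted p up to 0.00718). Foxc2 was thus highest where Tbx1 was lowest, but both were chosen with earlier results known, so nothing is read from this. The fully separated order of Foxc2 was found in 1.33% of all tested genes. Cyp26a1, for an enzyme that degrades retinoic acid, had 0.13 (adjusted p = 0.772), and Crkl, an adaptor gene whose effects overlap those of Tbx1, had -0.07 (0.814).

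Of 19 genes tied to Tbx2 and Tbx3 as targets or as partners in the pluripotency network, 12 were tested. By limma 2 rose and 1 fell, where 3.41% of all tested genes rose and 2.15% fell. The median was 0.24, beside 0.05 for all tested genes. Tcl1, an AKT coactivator gene, had 270, 199 and 255 FPKM in TSPAN8-high cells, 62.1, 93.8 and 165 in TSPAN8-low and 160, 123 and 180 in all ID4-EGFP+, a log2 fold change of 1.27 between the fractions (SE 0.29, adjusted p = 0.0276). Cdh1, for E-cadherin, had 0.73 (SE 0.19, adjusted p = 0.0496). Nanog, a homeobox gene of pluripotent cells, had 5.54, 8.88 and 11.1 FPKM in TSPAN8-high cells, 13.8, 20.2 and 18.5 in TSPAN8-low and 17.2, 16.5 and 24.9 in all ID4-EGFP+, a log2 fold change of -0.99 (SE 0.24, adjusted p = 0.0340). The Nanog values are uncertain because near-identical processed copies of Nanog exist in the genome and reads can be split between them. Klf5 had -0.69 (adjusted p = 0.0605). When replicate number was a block, 5 genes of this list rose and 2 fell, where 11.8% and 7.34% of all tested genes did. Tcl1 and Cdh1 were listed with their results known, so these counts are not read as a result about the list. With a common median, and likewise with the authors' normalized values, 1 rose and 2 fell, so the balance of directions in this list rests on the scaling. Without 1 library the call was lost for Tcl1 in 5 cases, the 3 TSPAN8-high libraries and TSPAN8-low replicates 1 and 2 (adjusted p up to 0.0847), and for Nanog in 4, TSPAN8-high replicates 1 and 2 and TSPAN8-low replicates 2 and 3 (up to 0.107). It was lost for Cdh1 in 8, all but the leaving out of all ID4-EGFP+ replicate 1 (up to 0.136). With no filter the adjusted p was 0.0973 for Tcl1, 0.0998 for Nanog and 0.120 for Cdh1, and Cdh1 also missed the threshold with a pseudocount of 0.1 (0.0603), a common median (0.0741) and the authors' normalized values (0.0990).

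**Figure D4:**
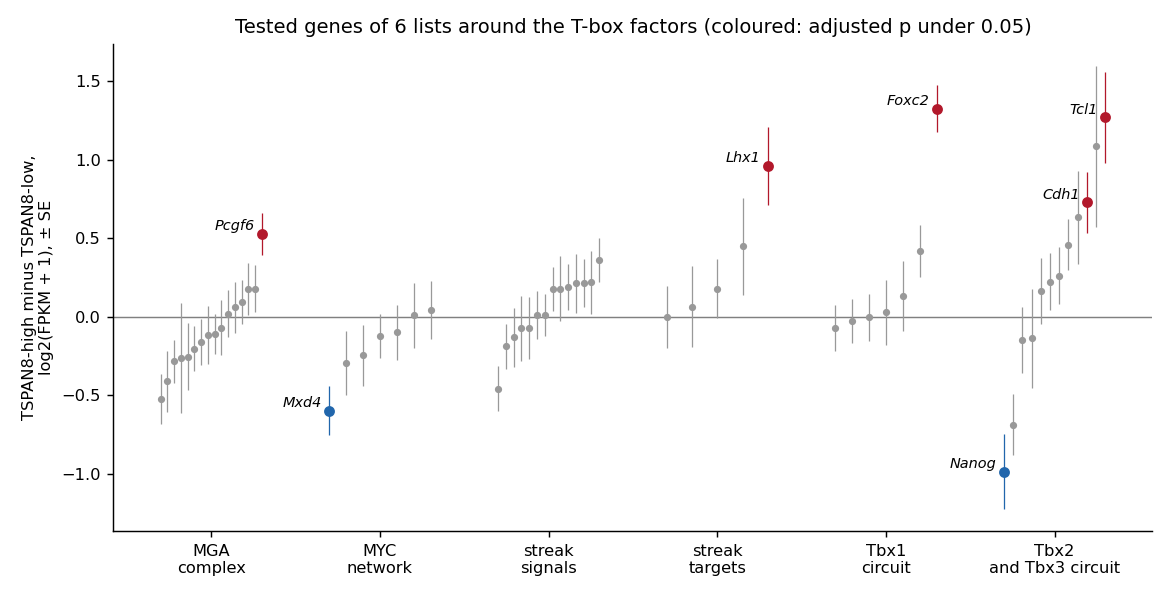
Log2 fold change, TSPAN8-high minus TSPAN8-low on the log2(FPKM + 1) scale with its SE (vertical axis), of the 61 tested genes in 6 lists around the T-box factors; none of the 10 other T-box genes was tested. Coloured and named points passed at an adjusted p under 0.05 by limma: Pcgf6, Lhx1, Foxc2, Tcl1 and Cdh1 above 0, Mxd4 and Nanog below.

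Among 11141 other tested genes, those whose log2(FPKM + 1) followed each tested member most closely over the 9 libraries are named as a description; the 9 libraries share their populations and replicate numbers. For T they included Bod1l (r = 0.965, Spearman's rho = 0.90) and Fam109a (r = 0.963, rho = 0.87). Bod1l averaged 3.97 FPKM in TSPAN8-high, 1.91 in TSPAN8-low and 2.68 in all ID4-EGFP+. For Eomes they were Ggt7 (r = 0.968, rho = 0.97), the ERK phosphatase gene Dusp6 (r = 0.968, rho = 0.93) and the tetraspanin gene Cd82 (r = 0.965, rho = 0.90). Dusp6 averaged 70.8 FPKM in TSPAN8-high, 28.4 in TSPAN8-low and 43.6 in all ID4-EGFP+. For Tbx1 they were Pcsk1n (r = 0.975, rho = 0.92), the cell cycle kinase gene Cdk6 (r = 0.973, rho = 0.98) and Mlec (r = 0.970, rho = 0.92). Cdk6 averaged 2.17 FPKM in TSPAN8-high, 7.90 in TSPAN8-low and 6.08 in all ID4-EGFP+. For Mga they were Rb1cc1 (r = 0.981, rho = 0.93), Dennd2c (r = 0.980, rho = 0.98) and Zfml (r = 0.976, rho = 0.92), of which Rb1cc1 averaged 14.1 FPKM in TSPAN8-high, 12.7 in TSPAN8-low and 12.7 in all ID4-EGFP+.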

How the data were processed

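The authors deposited Cufflinks FPKM values for 3 libraries of each population, and these were the values used. The submitters' processing notes name build mm9, Cufflinks, Bowtie2 2.2.3.0, TopHat2 2.0.12 and FastQC, and no annotation. A second deposited table, of values normalized by the authors, was treated as signal and served as an alternative. SMART-Seq v4 and Nextera XT, the kits per the labels' protocols, do not mark strand.

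The 768 entries of 262 repeated symbols were left out. Genes with at least 1 FPKM in at least 3 of 9 libraries entered 1 fit of 3 groups on log2(FPKM + 1) in limma 3.58.1 (R 4.3.3; trended eBayes, two-sided tests), with Benjamini-Hochberg adjustment over all 11142; a gene passed at an adjusted p under 0.05. The fit without the block was tested on simulated data with independent libraries, which does not cover the shared replicate numbers or the block. The 7 members and the lists were chosen with earlier results of these data known. Named genes were the T-box genes, up to 4 of each list with the smallest p, every list gene that passed, and the 3 genes most alike each tested member; some are not reported here. The value of 1 fragment was read from 1511 low genes with 1 GENCODE M21 transcript, with 220 bases taken off each length; for each member the step that brought its 9 values closest to whole was taken from 2200 steps of 0.3 to 2.5 times the expected one. Within a tolerance of 0.1, 5 members gave whole fragments (steps of 0.989 to 1.47), Eomes and Mga did not. Libraries share replicate numbers in the labels: deviations from the group means correlated with r of 0.265 to 0.481 in the 9 same-number pairs and -0.456 to 0.277 in the 18 others, so the number was taken to pair the samples and a second fit had it as a block. Tables were made in Python 3.11.15 and plots in matplotlib 3.10.9.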

Additional observations from a re-analysis of the deposited data

How the results depend on the processing

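The differences of T, Eomes and Tbx1 between TSPAN8-high and TSPAN8-low kept their sign under every alternative run. The genes were chosen on these values, so this is a description and no support. Dropping the filter, adding the block or leaving out an all ID4-EGFP+ library cannot change these differences. Their size depended on the pseudocount: with 0.1 in place of 1 the log2 difference was 2.25 for T, 1.94 for Eomes, -3.18 for Tbx1, 0.62 for Tbx2 and 0.36 for Tbx3, because a smaller pseudocount shrinks low values less. When 1 library or 1 replicate number was left out, it lay between 1.17 and 1.28 for T, 0.81 and 1.21 for Eomes, -1.92 and -1.21 for Tbx1, 0.06 and 0.10 for Tbx2, 0.01 and 0.12 for Tbx3, -0.05 and 0.08 for Tbx6 and -0.05 and 0.24 for Mga.

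With the replicate block the number of calls between the fractions was 2 for the MGA complex, 1 for the streak signals and 7 for the Tbx2 and Tbx3 list, and 3 of all list genes passed between TSPAN8-high and all ID4-EGFP+; the block changed the count of no other list. With the authors' normalized values there were 0 calls for the MGA complex, 1 for the streak signals and 0 for the streak targets; with a common median there was 1 for the streak signals and 0 for the streak targets, and the single call of the MGA complex was a lower gene in place of a higher one. With no filter there were 0 calls for the MYC network, the streak targets and the Tbx2 and Tbx3 list, and with a pseudocount of 0.1 there were 0 for the streak targets. Without 1 library or replicate number the calls ranged from 0 to 2 for the MGA complex, 0 to 1 for the MYC network and the streak targets, 0 to 3 for the Tbx2 and Tbx3 list and 0 to 2 for all list genes between TSPAN8-high and all ID4-EGFP+. The 7 called genes kept their sign in all 119 gene and setting combinations and lost the call in 69. With no filter, with the block or without an all ID4-EGFP+ library the estimate between the fractions cannot change. The sign could therefore not turn in those settings. The cause of the lost calls was not tested.

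Tbx1 in TSPAN8-high and Tbx2 everywhere rest on fewer than 10 fragments per library, which limits the precision of their ratios.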
